A study of Mus musculus with 10 samples.

Results

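The cytokine system of interleukin 3 (IL-3), interleukin 5 (IL-5) and the colony-stimulating factors was described here through 10 genes, taken by name from a table of 19175 genes. They encode the alpha chains of the receptors for IL-3 (Il3ra), IL-5 (Il5ra) and GM-CSF (Csf2ra), the beta chains Csf2rb and Csf2rb2, the factors GM-CSF (Csf2), M-CSF (Csf1) and G-CSF (Csf3), and the receptors for M-CSF (Csf1r) and G-CSF (Csf3r). Each was present in the table under its symbol. The values came from skin of C57BL/6 mice in the MC903 model of dermatitis, in which a vitamin D analogue applied to skin causes an itchy type 2 inflammation. A group of 5 samples was labelled as a knockout of Vamp7 conditional on basophils (CKO), and 5 samples were labelled as its Flox control, also entered by the labels as WT. VAMP7 is a vesicle membrane protein. Not given in the sources used here are the Cre driver, the mice's age and sex, the sampling time, and whether samples came from separate animals. All samples belonged to the MC903 model, so no level here could be set against untreated skin.

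IL-3, IL-5 and GM-CSF are made mainly by activated lymphocytes, and each binds its own alpha chain. The alpha chain then joins a shared beta chain, which carries the signal through the kinase JAK2 and the factor STAT5. Mice have a second beta chain gene, Csf2rb2, whose product serves IL-3 alone, while the product of Csf2rb serves all of these cytokines. IL-3 expands basophils and mast cells, IL-5 sustains eosinophils, and GM-CSF acts on granulocytes, macrophages and dendritic cells. M-CSF and its tyrosine kinase receptor maintain macrophages, and G-CSF with its receptor drives the output of neutrophils.

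Levels are in fragments per kilobase of transcript, scaled to the mapped fragments of each library (FPKM), which allow genes to be compared per length. Errors are SD with n = 5 per group. Each difference is a log2 fold change, CKO against Flox, of FPKM + 1, a scale that understates the change of low genes. Adjusted p-values are from limma over the 13186 genes that reached 1 FPKM in 5 or more libraries. Summed FPKM per library was 525369 to 581022, and the read depth is unknown. Vamp7 itself was at 17.33 to 19.19 FPKM across CKO and 18.09 to 22.5 across Flox (log2 fold change -0.088, SE 0.061, adjusted p = 0.530), values of whole skin that cannot check a knockout in basophils. The skin label was met by keratinocyte markers such as Krt5 and Krt14, whose list summed to 4680 to 6600 FPKM across CKO and 4610 to 6630 across Flox. CKO replicate 1 stood apart. Its 19 skeletal muscle genes summed to 1840 FPKM, where the rest of CKO had 476 to 1180 and Flox had 318 to 555. It was the lowest of all 10 libraries for 6 of the 10 members. All 16 muscle genes tested had a positive log2 fold change, 14 at an unadjusted p under 0.05, and 0 passed in limma. Over all genes tested 4.78% were higher at that unadjusted p. Fits with a muscle covariate are given below. As the muscle genes leaned to CKO, these fits cannot fully separate muscle RNA from the group, so its part in any difference is not settled.

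Over all 10 libraries, Csf1r was the most abundant member with a mean of 122 FPKM. It was followed by Csf2rb at 68.6, Csf3r at 66.0, Csf2rb2 at 41.1, Csf1 at 38.2, Csf2ra at 21.8, Il3ra at 12.7, Csf3 at 5.85, Il5ra at 0.730 and Csf2 at 0.436 FPKM. Csf2rb and Csf3r could not be ordered, since Csf2rb was above Csf3r in 6 of 10 libraries. Csf2rb2 was above Csf1 in 7 of 10, Il3ra above Csf3 in 9 of 10 and Il5ra above Csf2 in 9 of 10. The other neighbours kept their order in 10 of 10 libraries. The receptors for M-CSF and G-CSF and the beta chains thus lay above every growth factor measured in mean level.

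Of the 8 members tested, 0 passed an adjusted p of 0.05 in limma, where 0.106% of all genes tested passed, 0.0455% higher and 0.0607% lower in CKO. At an unadjusted p under 0.05, 1 member was higher in CKO (Csf3) and 1 was lower (Csf2rb2), against 4.78% and 10.3% of all genes tested (15.1% in either direction). The median log2 fold change of the 8 members was -0.042 (range -0.45 to 1.06), beside -0.027 over all genes tested. That median was 0.026 without CKO replicate 1, -0.081 without CKO replicate 2, -0.12 without CKO replicate 3, and the muscle covariate gave 0.10, so it gives no direction. Il5ra and Csf2 were under the filter on low values, and Il5ra was the only member of the 10 whose CKO and Flox values did not overlap. Over all genes tested 4.23% did not overlap, 1.24% higher and 3.0% lower in CKO. Il5ra was not among these: of the 5954 genes under the filter and above 0, 1.02% did not overlap, with 0.705% lower in CKO.

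**Figure D1:**
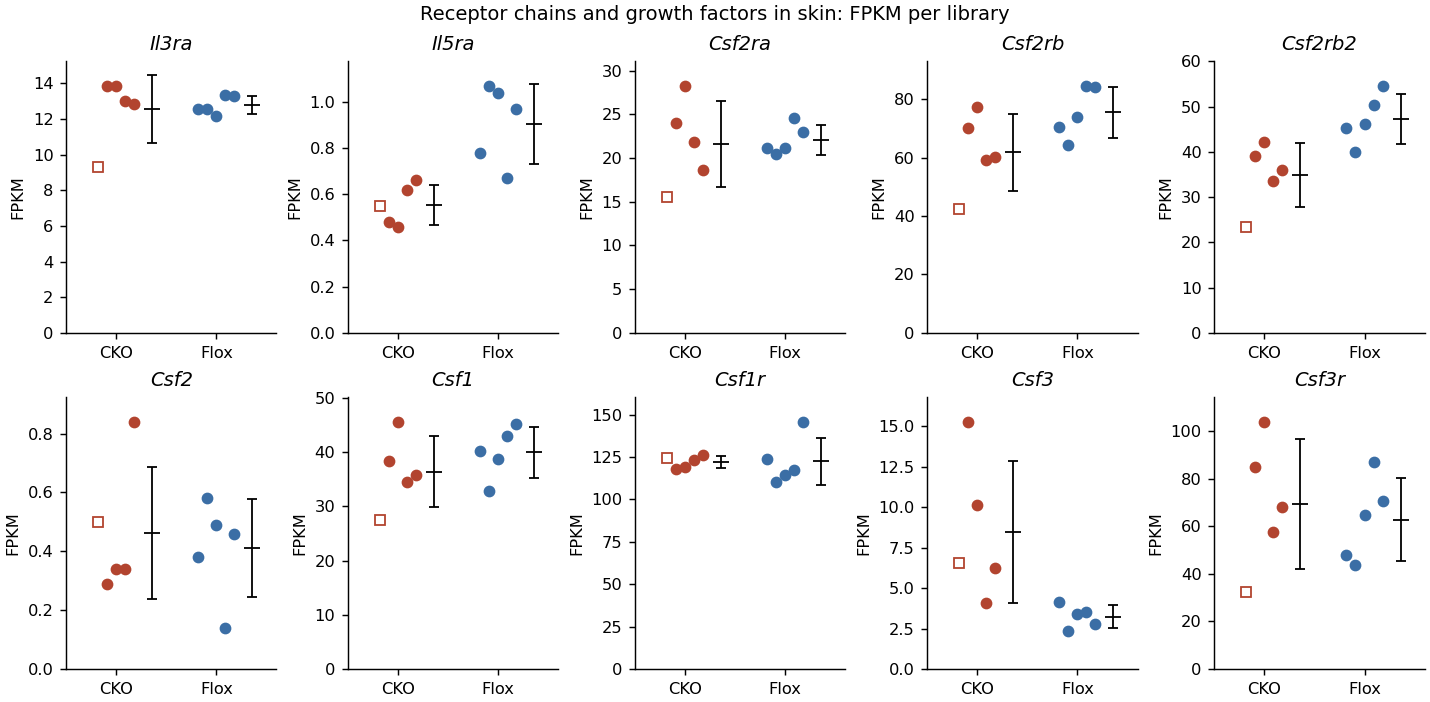
FPKM (vertical axes, each from 0) of the 10 members in 5 CKO and 5 Flox libraries, with 1 point per library, an open square for CKO replicate 1, and the mean ± SD beside each group. Csf3 was at 4.09 to 15.28 FPKM across CKO and 2.34 to 4.17 across Flox, Il5ra was lower in every CKO library than in any Flox library, and the open square is the lowest point for 6 members.

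The alpha chains set which cytokine a cell can bind. Il3ra (Entrez 16188), the IL-3 binding chain of basophils and other myeloid cells, was at 9.29, 13.87, 13.87, 13.0 and 12.86 FPKM in CKO replicates 1 to 5 and at 12.56, 12.54, 12.16, 13.34 and 13.28 FPKM in Flox replicates 1 to 5. Apart from CKO replicate 1, every CKO value lay within or just above the Flox range. The log2 fold change was -0.033 (SE 0.095, 95% interval -0.24 to 0.18, adjusted p = 0.917), and 0.064 without CKO replicate 1.

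In the same samples the basophil marker list summed to 144 to 285 FPKM across CKO and 388 to 454 across Flox. Of its 10 tested genes 3 fell, among them the activating receptor Cd200r3, where 0.0607% of all genes tested fell. The median log2 fold change of the list was -1.09 (-1.18 to -0.74 over the alternatives). The count of 3 rests on most libraries: it was 6 without CKO replicate 1, 2 without CKO replicate 3 or 5, and 0 without CKO replicate 2 or 4 or any 1 Flox library. It was also 0 without the filter, with the replicate block and with the muscle covariate. Mcpt8, the basophil granule protease, averaged 26.9 ± 14.7 FPKM in CKO against 139 ± 17.6 in Flox (limma adjusted p = 0.0507). In whole skin, fewer cells of a type and less RNA per cell cannot be told apart. The part of basophils in the Il3ra values was not tested.

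Csf2ra (Entrez 12982), the GM-CSF binding chain of granulocytes, macrophages and dendritic cells, was at 15.49, 23.95, 28.26, 21.80 and 18.67 FPKM in CKO replicates 1 to 5. In Flox it was at 21.15, 20.41, 21.17, 24.60 and 22.98 FPKM. The CKO values spread on both sides of the narrower Flox range. Its log2 fold change was -0.052 (SE 0.13, 95% interval -0.35 to 0.24, adjusted p = 0.905), and 0.056 without CKO replicate 1. Of 6 tested markers of dendritic and Langerhans cells, which respond to GM-CSF, 0 passed in limma, with a median of -0.18. At an unadjusted p under 0.05 in limma 2 were lower, against 10.3% of all genes tested. The median of the markers was -0.033 without CKO replicate 1, and the muscle covariate gave 0.016.

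Il5ra (Entrez 16192), the IL-5 binding chain found mainly on eosinophils and also on basophils and some B cells, was at 0.55, 0.48, 0.46, 0.62 and 0.66 FPKM in CKO replicates 1 to 5. In Flox it was at 0.78, 1.07, 1.04, 0.67 and 0.97 FPKM. Every CKO value was under every Flox value, though the highest CKO library (0.66) and the lowest Flox library (0.67) nearly met. The Flox mean was 1.64 times the CKO mean (0.906 ± 0.174 against 0.554 ± 0.0865 FPKM). As a single value the difference had an exact two-sided permutation p of 0.00794, unadjusted, which is the smallest that 5 samples against 5 can give. Among the 5954 genes under the filter and above 0, 1.02% did not overlap, and 0.705% were lower in CKO in this way. Fitted without the filter over 19140 genes, where 0.0157% passed, the log2 fold change of Il5ra was -0.29 (SE 0.066), which did not pass (limma adjusted p = 0.156).

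Eosinophil markers lay lower in the same CKO samples without passing the test. Of 6 tested genes all 6 had a negative log2 fold change (median -0.57), and 0 passed in limma, with 4 at an unadjusted p under 0.05. At that p, 10.3% of all genes tested were lower in CKO. The lectin Siglecf averaged 1.93 ± 0.322 FPKM in CKO against 3.78 ± 0.928 in Flox (adjusted p = 0.0651), and the eotaxin receptor Ccr3 was at 1.75 ± 0.406 and 3.83 ± 1.13 (adjusted p = 0.0833). The list sum overlapped, at 24.2 to 49.3 FPKM across CKO and 33.6 to 68.2 across Flox, and Epx, the eosinophil peroxidase, did not reach 1 FPKM in any library. What share eosinophils had in the Il5ra difference was not tested.

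Among the alpha chains of a library, Il3ra made up 36.4 ± 2.62% of the summed FPKM in CKO and 35.8 ± 0.902% in Flox. Csf2ra made up 61.9 ± 3.01% and 61.7 ± 1.33%. For both, the group means lay closer than the SD of either group. Il5ra made up 1.66 ± 0.481% and 2.55 ± 0.577%.

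The beta chains transmit the signal. Their genes are neighbouring paralogs on chromosome 15, on opposite strands, and a read must carry a differing base to be placed on either. Over 2629 aligned coding bases of the GENCODE M21 transcripts Csf2rb-201 and Csf2rb2-201, 95.3% were identical, with an unbroken identical stretch of 242 bases. Of the windows of 50 bases, the read length of the libraries, 18.9% along the Csf2rb transcript and 19.0% along the Csf2rb2 transcript occurred in the other. How the authors assigned such reads is not given in the sources used here, so the split between both genes is uncertain. The window of 50 aligned coding bases with the most differences, 12, shows what lets a read tell the genes apart; it lies in the fourth exon of both. Capitals mark the differing bases, the sequences run 5′ to 3′ along each transcript, and positions are on GRCm38, which need not be the authors' build.
Csf2rb, chr15:78338898-78338947, plus strand: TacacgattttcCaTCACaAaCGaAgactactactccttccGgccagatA
Csf2rb2, chr15:78294384-78294433, minus strand: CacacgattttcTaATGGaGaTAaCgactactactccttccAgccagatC

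Csf2rb (Entrez 12983), the common beta chain, was at 42.27, 70.13, 77.13, 59.07 and 60.07 FPKM in CKO replicates 1 to 5. In Flox it was at 70.32, 64.22, 74.02, 84.55 and 84.09 FPKM. The lowest values were those of CKO replicates 1, 4 and 5, while replicates 2 and 3 lay within the Flox range. The log2 fold change was -0.31 (SE 0.15, 95% interval -0.63 to 0.017, adjusted p = 0.357). Without CKO replicate 1 it was -0.18. A covariate for muscle, the mean log2 level of the muscle genes in each library, gave -0.051.

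Csf2rb2 (Entrez 12984), the IL-3 specific beta chain, was at 23.42, 39.03, 42.06, 33.65 and 35.94 FPKM in CKO replicates 1 to 5. In Flox it was at 45.29, 40.05, 46.23, 50.41 and 54.58 FPKM. CKO replicate 3 alone lay above the lowest Flox library. The Flox mean was 1.36 times the CKO mean (47.3 ± 5.49 against 34.8 ± 7.12 FPKM). The log2 fold change was -0.45 (SE 0.14, 95% interval -0.77 to -0.13, unadjusted p = 0.00952, limma adjusted p = 0.205). Without CKO replicate 1 it was -0.32 (adjusted p = 0.207), and the muscle covariate gave -0.18 (adjusted p = 0.703).

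Within a library, dividing both chains by each other removes what scales them alike. The ratio of Csf2rb2 to Csf2rb was 0.554, 0.557, 0.545, 0.570 and 0.598 in CKO replicates 1 to 5 and 0.644, 0.624, 0.625, 0.596 and 0.649 in Flox replicates 1 to 5. Only Flox replicate 4 and CKO replicate 5 crossed, by 0.596 against 0.598. CKO replicate 1, which had the lowest level of both chains, lay inside the range of the other CKO libraries. The log2 difference was -0.15, a ratio 1.11 times higher in Flox (exact two-sided permutation p = 0.0159, n = 5 per group, where 0.00794 is the smallest possible). It passed 0.05 without any 1 of the 10 libraries, at -0.17 to -0.14 with exact permutation p of 0.00794 to 0.0238. With the replicate number as a block the exact sign-flip p was 0.0625, the smallest that pairing allows. These p-values are unadjusted, and the share of other gene pairs whose ratio would pass was not computed. Of single genes, 15.1% had an unadjusted p under 0.05 in limma. As the genes share reads, the value of the ratio depends on how those were divided, which was the same procedure for all columns as far as the sources used here say.

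Set against the alpha chains, the summed beta chains were lower in CKO in every library. Csf2rb and Csf2rb2 together were 2.59, 2.85, 2.8, 2.62 and 2.98 times the summed alpha chains in CKO replicates 1 to 5. In Flox replicates 1 to 5 the figure was 3.35, 3.06, 3.5, 3.5 and 3.72. This ratio was formed after the values had been seen and is given without a test. The share of other such ratios that separate the groups was not computed, so this too is a description only.

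**Figure D2:**
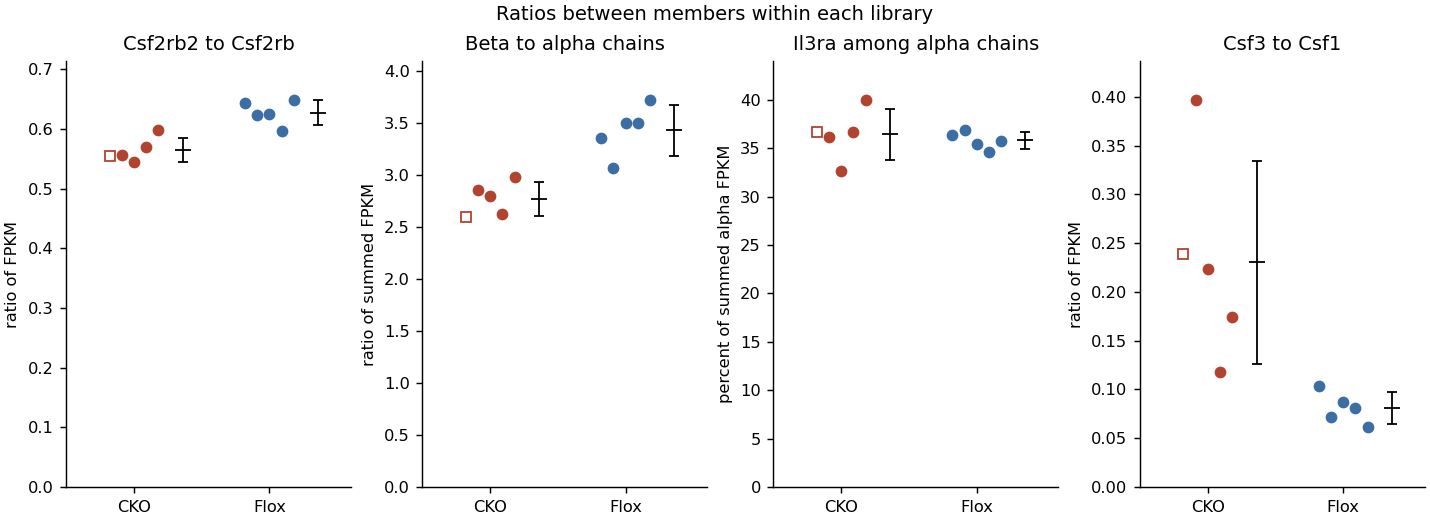
Ratios within each library (vertical axes, from 0) for Csf2rb2 to Csf2rb, both beta chains to the 3 alpha chains, Il3ra as a percent of the alpha chains, and Csf3 to Csf1, with 1 point per library, an open square for CKO replicate 1, and the mean ± SD beside each group. The ratio of beta to alpha chains was 2.59 to 2.98 in CKO and 3.06 to 3.72 in Flox, and the Il3ra percent overlapped between the groups.

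The genes most like the beta chains over the 10 libraries were sought among all tested genes outside the 10 members, by Pearson r of log2(FPKM + 1). For Csf2rb2 they were Cd244a (r = 0.975, Spearman rho = 0.952), a receptor of natural killer cells and other leukocytes that basophils and eosinophils also carry, the homeobox factor Hhex (r = 0.974, rho = 0.939) and Stat5a (r = 0.971, rho = 0.939), a factor that beta chain signalling activates. For Csf2rb they were Hhex (r = 0.990, rho = 0.976), the small GTPase Arf3 (r = 0.989, rho = 0.976) and the leukocyte kinase Stk10 (r = 0.984, rho = 0.939). Without the 2 libraries farthest from the median of the member, r was 0.894 to 0.979 for these pairs over 8 libraries. Within the 5 Flox libraries alone r was 0.81 to 0.987, and within the 5 CKO libraries 0.953 to 0.998. The points share the low values of CKO replicate 1 and the group difference, and as the genes were picked by r over all libraries these values are a description.

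**Figure D3:**
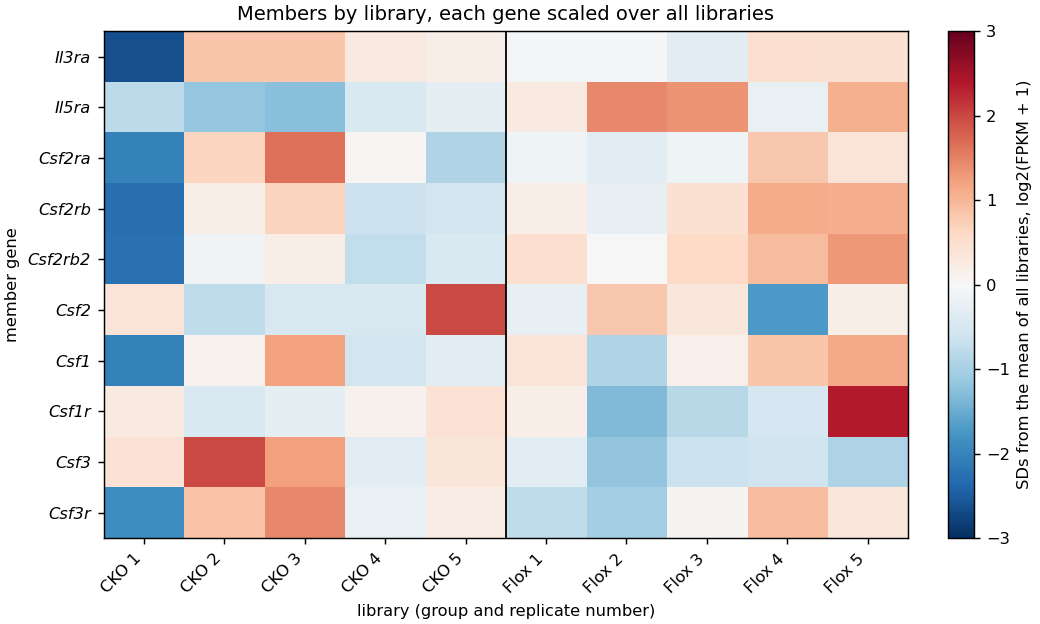
Members (rows) by library (columns, CKO left and Flox right of the line), coloured by the number of SDs that log2(FPKM + 1) lies from the mean of the 10 libraries. CKO replicate 1 is the lowest library for Il3ra, Csf2ra, Csf2rb, Csf2rb2, Csf1 and Csf3r, and CKO replicate 2 the highest for Csf3.

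The stretches before the starts of Csf2rb2 and Il5ra are shown because these receptor genes had the largest ratios of the Flox to the CKO mean, 1.36 and 1.64. They are the 250 bases upstream of the RefSeq start on GRCm38.p6, 5′ to 3′ along the gene. Promoters were found for 7 of the 10 members. Capitals mark matches, on either strand, to the GATA motifs TGATAA and AGATAA and to the STAT motif TTCNNNGAA.
Csf2rb2, chr15:78305722-78305971, minus strand: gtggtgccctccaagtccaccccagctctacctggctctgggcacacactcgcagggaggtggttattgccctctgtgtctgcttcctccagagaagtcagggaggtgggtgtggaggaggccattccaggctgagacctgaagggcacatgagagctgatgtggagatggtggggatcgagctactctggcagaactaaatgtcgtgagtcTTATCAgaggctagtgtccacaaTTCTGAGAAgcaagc
Il5ra, chr6:106749038-106749287, minus strand: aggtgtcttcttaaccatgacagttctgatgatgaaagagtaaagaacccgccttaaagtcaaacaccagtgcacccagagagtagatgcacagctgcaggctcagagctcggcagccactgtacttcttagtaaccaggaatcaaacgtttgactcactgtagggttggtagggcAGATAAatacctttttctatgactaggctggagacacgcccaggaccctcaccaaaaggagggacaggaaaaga

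In Csf2rb2 a TGATAA match began 38 bases before the start, read on the other strand, and a TTCNNNGAA match began 15 bases before it. In Il5ra an AGATAA match began 74 bases before the start. Matches to TGATAA were present in 7.94%, to AGATAA in 9.99% and to TTCNNNGAA in 7.02% of 32851 upstream stretches of this length. The share with either GATA motif, which is at least that of AGATAA, was not computed. Binding at these matches was not tested. Csf2 also held AGATAA, 247 bases before its start. The ETS motif GAGGAA, of the kind bound by the myeloid factor PU.1, was present in Csf2rb2, Csf2ra and Csf3r and in 23.3% of all stretches. None of the motifs searched overlapped another in these promoters.

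G-CSF had the largest log2 fold change of the 8 tested members. Csf3 (Entrez 12985), the growth factor that calls neutrophils out of the bone marrow, was at 6.55, 15.28, 10.17, 4.09 and 6.23 FPKM in CKO replicates 1 to 5. In Flox it was at 4.17, 2.34, 3.37, 3.50 and 2.78 FPKM. CKO replicate 4 lay just under Flox replicate 1, and the other CKO libraries lay above every Flox library. The CKO mean was 2.62 times the Flox mean (log2 fold change 1.06, SE 0.27, 95% interval 0.46 to 1.66, unadjusted p = 0.00253, limma adjusted p = 0.138). It was 0.83 without CKO replicate 2 and 1.11 without CKO replicate 1. The muscle covariate gave 1.50, with an adjusted p of 0.103 to 0.310 over all alternatives tried.

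The receptor of G-CSF overlapped widely between the groups. Csf3r (Entrez 12986), found mainly on neutrophils and their precursors, was at 32.26, 85.05, 103.81, 57.69 and 67.92 FPKM in CKO replicates 1 to 5 and at 48.02, 43.52, 64.63, 86.86 and 70.42 FPKM in Flox. The lowest and the highest library both belonged to CKO. The log2 fold change was 0.087 (SE 0.29, 95% interval -0.56 to 0.73, adjusted p = 0.929), and 0.33 without CKO replicate 1. The muscle covariate gave 0.59.

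Neutrophil markers were not called either. Of 12 genes 6 were tested, 5 with a positive log2 fold change (median 0.41), and 0 passed in limma. At an unadjusted p under 0.05 in limma 2 were higher, against 4.78% of all genes tested. Without CKO replicate 2 the median of the list was 0.25. The collagenase Mmp8 averaged 11.5 ± 4.44 FPKM in CKO against 6.66 ± 2.35 in Flox (adjusted p = 0.231). The list summed to 135 to 265 FPKM across CKO and 118 to 205 across Flox, highest in CKO replicate 2, which was also the highest for Csf3. Their part in the Csf3 values was not tested.

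The genes most like Csf3 over the 10 libraries were the neutrophil chemokine gene Cxcl3 (r = 0.947, rho = 0.879), the inhibitor of Toll-like receptor signalling Irak3 (r = 0.947, rho = 0.903) and the chromatin protein gene Hmga2 (r = 0.946, rho = 0.915). Without CKO replicates 2 and 3, the libraries farthest from its median, r was 0.774, 0.927 and 0.928 over 8 libraries. Within the 5 Flox libraries r was 0.524, 0.835 and 0.746, and within the 5 CKO libraries 0.961, 0.943 and 0.982. Cxcl3 was at 90.49 FPKM in CKO replicate 2 and 61.78 in CKO replicate 3, against 19.42 to 37.35 in the other libraries.

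M-CSF and its receptor also overlapped between the groups. Csf1 (Entrez 12977) was at 27.41, 38.45, 45.59, 34.56 and 35.84 FPKM in CKO replicates 1 to 5 and at 40.20, 32.82, 38.74, 42.98 and 45.15 FPKM in Flox. The ranges overlapped widely, and the log2 fold change was -0.14 (SE 0.12, 95% interval -0.42 to 0.13, adjusted p = 0.637). Csf1r (Entrez 12978) was at 124.45, 117.91, 119.23, 123.06 and 125.99 FPKM in CKO and at 123.77, 110.57, 114.52, 117.52 and 145.77 FPKM in Flox. Its log2 fold change was 0.0029 (SE 0.071, adjusted p = 0.991) with a 95% interval of -0.15 to 0.16, the narrowest of the 8 tested members. CKO replicate 1, the lowest library for Csf1, lay inside the Flox range for Csf1r.

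Macrophage markers varied in both directions, with log2 fold changes of -0.49 to 0.80. Of 13 tested genes 7 had a positive and 6 a negative log2 fold change (median 0.053, and 0.00051 to 0.13 over the alternatives), and 0 passed in limma. An unadjusted p under 0.05 in limma was met by 3, against 15.1% of all genes tested. Adgre1, which encodes the macrophage antigen F4/80, averaged 33.3 ± 4.77 FPKM in CKO against 47.3 ± 6.26 in Flox with no overlap (log2 fold change -0.49, SE 0.11, adjusted p = 0.116), where 4.23% of genes tested did not overlap. The efferocytosis receptor Mertk had a log2 fold change of 0.23 (SE 0.061, adjusted p = 0.147). Cd14 was the highest of the list at 0.80 (SE 0.30, adjusted p = 0.261), with 70.68 to 217.06 FPKM across CKO and 52.14 to 78.62 across Flox. The list summed to 3800 to 4840 FPKM across CKO and 3910 to 4500 across Flox.

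Set within a library, Csf3 was 0.239, 0.397, 0.223, 0.118 and 0.174 times Csf1 in CKO replicates 1 to 5 and 0.104, 0.0713, 0.0870, 0.0814 and 0.0616 times in Flox. The groups did not overlap for this ratio, which was formed after the values had been seen and is given without a test. How often ratios of other gene pairs do not overlap was not computed, so the separation is a description only. GM-CSF was the scarcest member. Csf2 (Entrez 12981) was at 0.50, 0.29, 0.34, 0.34 and 0.84 FPKM in CKO and at 0.38, 0.58, 0.49, 0.14 and 0.46 FPKM in Flox, under 1 FPKM in all 10 libraries. The highest library was CKO replicate 5 and the lowest was Flox replicate 4. The difference had an exact two-sided permutation p of 0.714.

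**Figure D4:**
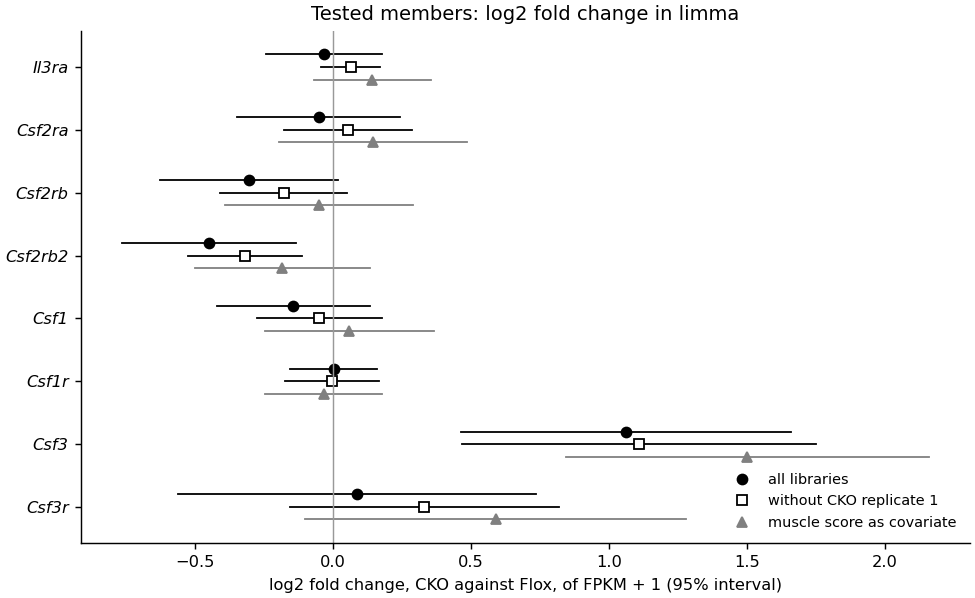
Log2 fold change of CKO against Flox (horizontal axis, log2(FPKM + 1) scale) with the 95% interval in limma for the 8 tested members, with all libraries (circles), without CKO replicate 1 (squares) and with the muscle covariate (triangles). Csf3 was at 1.06, 1.11 and 1.50, Csf2rb2 at -0.45, -0.32 and -0.18, and Csf1r stayed within 0.034 of 0.

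Of the ligands outside the 10 members, 2 were scarce and 1 was not. Il3 was at 0.12 to 0.59 FPKM across CKO and 0.30 to 0.95 across Flox, and Il5 was at 0 to 0.16 and 0 to 0.13 FPKM, so the alpha chains of both cytokines exceeded their ligands in mean level. Il34, whose product is the other ligand of the M-CSF receptor and sustains Langerhans cells, averaged 6.18 ± 0.636 FPKM in CKO against 5.46 ± 0.545 in Flox (adjusted p = 0.402, log2 fold change 0.15, SE 0.079). Of 9 cytokines that induce colony-stimulating factors, 7 were matched by symbol and 5 were tested, of which 0 passed and 0 had an unadjusted p under 0.05 in limma. Il17a and Il17f were under the filter. Il17a was at 0.08 to 0.34 FPKM across CKO and 0.04 to 0.09 across Flox, and Il17f at 0.04 to 0.29 and 0.03 to 0.21. Fitted without the filter, neither passed (limma adjusted p = 0.231 and 0.707), while the unadjusted p of Il17a was 0.00745. Tnf was at 3.78, 17.39, 12.56, 6.04 and 5.19 FPKM in CKO replicates 1 to 5 and 4.65 to 7.65 in Flox. Il1b was at 80.77, 536.20, 399.55, 192.47 and 190.00 FPKM in CKO and 153.43 to 334.28 in Flox. For both, CKO replicates 2 and 3 were the highest of all libraries, as they were for Csf3. Tslp, the epithelial cytokine of this model, was at 55.80 to 171.80 FPKM across CKO and 79.00 to 97.49 across Flox.

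Of 20 genes that relay the signal of these receptors, 0 passed in limma. At an unadjusted p under 0.05 in limma 1 was higher and 1 lower, against 4.78% and 10.3% of all genes tested. The median log2 fold change of the 20 was -0.067, and 0.020 without CKO replicate 1, beside -0.027 over all genes tested. Stat3, which the G-CSF receptor activates, was at 75.94 to 83.43 FPKM across CKO and 62.76 to 74.50 across Flox with no overlap (log2 fold change 0.17, SE 0.055, adjusted p = 0.211). Higher CKO values without overlap were found for 1.24% of all genes tested. Stat5a was at 8.27 to 11.89 FPKM across CKO and 11.26 to 14.38 across Flox (log2 fold change -0.25, SE 0.094, adjusted p = 0.256). For the kinase genes Jak1 and Jak2 the log2 fold change was -0.016 (SE 0.055) and -0.060 (SE 0.086).

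Among 13 target and feedback genes of STAT5, 1 rose, 0 fell, and 4 were higher and 3 lower at an unadjusted p under 0.05 in limma. Over all genes tested 0.0455% rose and 0.0607% fell, and 4.78% were higher and 10.3% lower at that unadjusted p. For the 13 genes the median log2 fold change was -0.010 and the mean 0.026. That median was -0.028 to 0.041 over the alternatives, so no direction is given. The list was not divided by the way STAT5 acts on each gene, so its median does not measure STAT5 activity. The gene of the anti-apoptotic protein BCL-XL, Bcl2l1, rose. It was at 30.62, 27.58, 36.51, 30.73 and 32.15 FPKM in CKO replicates 1 to 5. In Flox it was at 21.24, 19.76, 20.93, 24.76 and 21.13 FPKM, with no overlap. Such a separation with CKO higher was met by 1.24% of all genes tested. The log2 fold change of Bcl2l1 was 0.53 (SE 0.078, limma adjusted p = 0.0463). Its adjusted p was 0.0454 without CKO replicate 1, 0.0410 without CKO replicate 2 and 0.0498 without Flox replicate 4. It did not pass without any 1 of CKO replicates 3, 4 and 5 (0.0646, 0.0940 and 0.0933) or Flox replicates 1, 2, 3 and 5 (0.133, 0.145, 0.125 and 0.126), with the log2 fold change at 0.47 to 0.57. Nor did it pass with equal library totals (0.0719), without the filter (0.0597), with the replicate number as a block (0.158) or with the muscle covariate (0.308), with the log2 fold change at 0.51, 0.53, 0.53 and 0.52.

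Cish, a STAT5-induced inhibitor of cytokine receptors, lay on the other side. It was at 9.15, 8.23, 8.96, 8.48 and 8.38 FPKM in CKO replicates 1 to 5. In Flox it was at 11.12, 12.69, 10.65, 11.05 and 13.10 FPKM, without overlap. Such a separation with CKO lower was met by 3.0% of all genes tested. The log2 fold change of Cish was -0.40 (SE 0.063, 95% interval -0.54 to -0.26), and its adjusted p of 0.0507 in limma was just over the threshold. It passed without CKO replicate 1 (-0.42, adjusted p = 0.0459) and with array quality weights (-0.37, adjusted p = 0.0283), and not under the other 15 alternatives, among them 0.156 without Flox replicate 2, 0.181 with the replicate block and 0.217 with the muscle covariate. Its log2 fold change was -0.46 to -0.36 over all 17. Bcl6 averaged 12.6 ± 0.621 FPKM in CKO against 9.72 ± 1.04 in Flox (adjusted p = 0.0833), and Socs3, a feedback inhibitor that STAT3 induces, was at 69.8 ± 9.67 and 49.2 ± 9.36 (adjusted p = 0.135). Basophil markers were lower in the same samples (median -1.09), and their part in the Cish values was not tested.

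**Figure D5:**
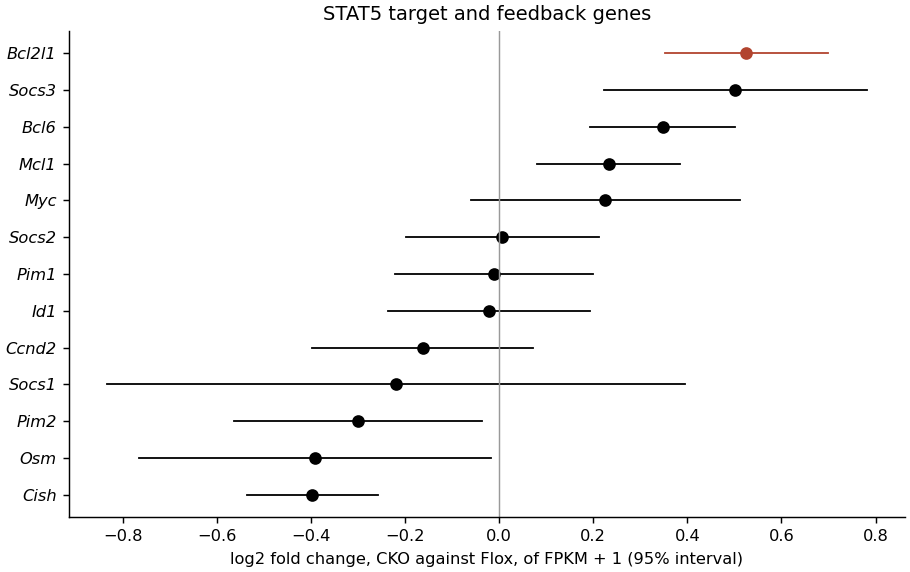
Log2 fold change of CKO against Flox (horizontal axis, log2(FPKM + 1) scale) with the 95% interval in limma for 13 target and feedback genes of STAT5, with the gene that passed an adjusted p of 0.05 in red. Bcl2l1 was at 0.53 and passed, and Cish at -0.40 was the lowest of the list and did not.

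Of 10 transcription factors of the myeloid lineages, 9 were tested, 1 fell and 0 rose, where 0.0607% and 0.0455% of all genes tested did. The gene that fell, Gata2, also stands in the basophil marker list and was already counted among the genes that fell there. The median log2 fold change of the list was -0.16 (-0.28 without CKO replicate 2 and -0.25 without CKO replicate 3). Gata2, a factor of basophils and mast cells, was at 8.51, 9.23, 15.45, 11.90 and 15.78 FPKM in CKO replicates 1 to 5. In Flox it was at 23.43 to 30.12 FPKM, with no overlap. Lower CKO values without overlap were found for 3.0% of all genes tested. The log2 fold change of Gata2 was -1.11 (SE 0.16, limma adjusted p = 0.0463). It did not pass without CKO replicate 2 or 4 (adjusted p = 0.0577 and 0.0940) or without Flox replicate 1, 2, 3, 4 or 5 (0.133, 0.140, 0.114, 0.0706 and 0.126), with the log2 fold change at -1.21 to -1.0 over the libraries left out. Nor did it pass without the filter (0.0597), with the replicate block (0.158) or with the muscle covariate (0.316). Gata1, the related factor of basophils, eosinophils and mast cells, was at 0.79 to 1.12 FPKM across CKO and 1.44 to 2.23 across Flox (adjusted p = 0.0651), and Cebpb was at 86.3 ± 8.0 and 67.9 ± 7.55 (adjusted p = 0.135). Spi1, which encodes PU.1, was at 73.65 to 108.79 FPKM across CKO and 85.89 to 110.90 across Flox (log2 fold change -0.098, SE 0.11). Mast cell markers had a median of -0.012 (-0.097 to 0.052 over the alternatives) over 8 tested genes, with 0 passing in limma. At an unadjusted p under 0.05 in limma 1 was lower, against 10.3% of all genes tested.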

How the data were processed

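Deposited by the authors, per the file headers, was a table with the FPKM of each gene, 1 column for each sample. RNA was poly(A)-selected, random-primed and sequenced single-end for 50 bases, per the labels' protocols. HISAT is named as the aligner, per the submitters' processing notes. Not given in the sources used here are the counter, genome build, annotation and versions. Low values came in whole multiples of 1 read for only 37.9% of 614 values (tolerance 0.1 read), so reads were not recovered and the depth is unknown. The series text gives 2 totals, of which 5 + 5 matches the 10 labelled samples used.

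limma-trend (limma 3.58.1, R 4.3.3) was fitted on log2(FPKM + 1) of the 13186 genes that reached 1 FPKM in 5 or more libraries, without covariates, two-sided, with Benjamini-Hochberg adjustment over all genes tested and a threshold of 0.05. The code was tested on simulated data. Single values used an exact permutation test. Other genes were named by rule, as up to 4 of lowest p per list, or by likeness to the 3 members of lowest p. Tslp, Il17a, Il17f, Jak1, Jak2, Spi1 and some markers were added after their values were seen. Members, lists and tests were chosen with earlier results of these data known. The p-values measure the spread between samples not stated to be separate animals. Sequences are from RefSeq (GRCm38.p6) and GENCODE M21 (GRCm38). Alternatives were a pseudocount of 0.1, no filter, quantile normalization, equal library totals, array quality weights, the replicate number as a block, a muscle covariate (mean log2 level of 19 skeletal muscle genes) and each library left out. 1 gene of the lists is not reported here by name.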

Additional observations from a re-analysis of the deposited data

Results flagged for a closer look

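Il3ra was at 9.29 FPKM in CKO replicate 1, against 12.9 to 13.9 FPKM in the other CKO libraries. The gap to the nearest library was 0.779 of the whole range of the group, above Dixon's 95% critical value for 5 samples. Of 28 groups of values of the members and their ratios, 1 was marked in this way, and chance marks about 1 in 20. The same library had the highest sum of skeletal muscle genes, 1840 FPKM, and the lowest array quality weight, 0.272.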

How the results depend on the processing

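Over all 17 alternatives, 0 of the members fitted passed an adjusted p of 0.05 in limma, in either direction. Csf3, Csf2rb and Csf2rb2 kept their sign in 17 of 17 alternatives, at 0.83 to 1.50, -0.39 to -0.051 and -0.52 to -0.18. Il5ra kept its sign in 15 of 15. Signs turned with array quality weights for Il3ra (0.049) and Csf2ra (0.044), with equal library totals for Csf1r (-0.015), and with the muscle covariate for Il3ra (0.14), Csf2ra (0.14), Csf1 (0.058), Csf1r (-0.034) and Pik3cd (0.036). The cause was not tested. Without 1 library, values ranged from -0.069 to 0.064 for Il3ra, -0.15 to 0.056 for Csf2ra, -0.032 to 0.067 for Csf1r, -0.083 to 0.33 for Csf3r, -0.038 to 0.092 for Csf2 and -0.064 to 0.61 for Il1b, so no direction is given for these.

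Over all genes, 6 were higher and 8 lower in CKO. The counts were 1 and 2 without the filter, 30 and 60 with array quality weights, and 0 and 0 with the muscle covariate (1242 at an unadjusted p under 0.05 in limma), while 2 were higher with equal totals. Without 1 library they were 0 to 11 and 0 to 15 (limma, unadjusted p under 0.05 for 1498 to 2033 genes). With the replicate number as a block 0 were higher and 0 lower (limma; 1911 at an unadjusted p under 0.05), and the log2 ratio of Csf2rb2 to Csf2rb was -0.15 with an exact sign-flip p of 0.0625, the smallest that pairing allows. The correlation of the deviations of same-numbered libraries was -0.21 to 0.212, and over 0.1 in 2 of 5 pairs. For libraries with different numbers it was -0.515 to 0.574. With so wide a spread among unlike numbers, these correlations cannot decide whether equal numbers mark paired samples. Array weights and the muscle covariate were not run for Il5ra, Csf2 and the ratio. With the depth unknown, no counting error is given for Il5ra and Csf2.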
